A study of Canis lupus familiaris with 8 samples.

Results

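Homeobox genes encode transcription factors that bind DNA through a homeodomain, and 55 of them were chosen by gene symbol: retinal homeobox factors, set beside HOX, NKX and DLX genes that are usually silent in retina. Of the 55, 48 have values among the 12824 genes of the deposited table, and NKX2-2, DLX2, LHX1, POU4F3, ISL2, POU3F1 and PKNOX1 are not analysed here. The HOX, NKX and DLX genes were chosen because they were seen to be higher in fixed retina, so their change is described and not tested.

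Retina of wild-type male Beagle dogs (Canis lupus familiaris) aged 31 weeks was profiled by RNA sequencing of total RNA, with 4 fresh-frozen and 4 paraformaldehyde-fixed (PFA-fixed) libraries. Fresh-frozen tissue came from right eyecups, cut into 4 quadrants and frozen in embedding medium with no fixative. PFA-fixed tissue came from left eyes kept for 3 h in 4% PFA and then for 24 h at 2% PFA, cut into quadrants, cryoprotected in 15% and then 30% sucrose and frozen in the same medium. RNA was extracted with a micro-scale column kit from fresh-frozen tissue and with a kit for paraffin-embedded tissue, with 18 h of proteinase K at 56 °C and an added DNase step, from fixed tissue. Fixation, eye side and extraction kit therefore cannot be told apart, and no source used here says which libraries share a dog or a quadrant. The tests therefore rest on the spread among these 8 libraries, part of which may be technical.

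In the embryo, homeobox factors set body position and cell identity, and in the adult many stay on in the cells they specified. PAX6, RAX, SIX3, SIX6 and LHX2 define the eye field. Later factors mark particular retinal cell classes, such as POU4F1 and POU4F2 in ganglion cells and PROX1 in horizontal and AII amacrine cells. HOX genes pattern the trunk and limbs behind the level of the eye, and NKX and DLX genes pattern ventral neural tube and forebrain. TALE homeobox proteins such as MEIS and PBX bind DNA together with other homeodomain proteins.

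Values are log2 CPM (read counts scaled to library size), which are not scaled to transcript length, so levels are compared between libraries and not between genes. Estimated depth was 21610000 to 22810000 reads in fresh-frozen and 11030000 to 15340000 in fixed libraries, and all libraries shared a lowest value of -3.12 log2 CPM. Libraries of one group were not alike in dorsal and ventral genes. VAX2, a homeobox gene of ventral retina, was at 1.28, -1.94, 2.03 and 4.10 log2 CPM in fresh-frozen replicates 1 to 4 and at -2.45, -1.70, -1.98 and 4.19 in PFA-fixed replicates 1 to 4. TBX5, a T-box gene of dorsal retina, was at 3.88, 4.16, 1.19 and -0.74 in fresh-frozen and 4.51, 5.02, 5.19 and 0.40 in fixed libraries. Replicate 4 of each group thus held the highest VAX2 and the lowest TBX5 level of its group (both genes were singled out after their values were seen). Without those 2 libraries, 12 of the homeobox genes rose and 12 fell, beside 12 and 14 with all 8 libraries.

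Marker genes of other tissue moved with the comparison. The 13 measured sclera and fibroblast markers summed to 9378 to 12849 CPM in fresh-frozen and 199 to 234 CPM in fixed libraries, and all 13 fell. The 13 pigment epithelium markers summed to 2368 to 3402 and 403 to 496 CPM, and all 13 fell. DPT of the first list and MLANA of the second had a fixed library at the lowest value. Of blood vessel and immune cell markers, 10 of 11 endothelial genes fell (median -2.64), as did 9 of 9 pericyte and smooth muscle genes (-2.69) and 12 of 14 microglia and macrophage genes (-2.68). Oligodendrocyte and myelin markers, 9 in number, summed to 1104 CPM in fresh-frozen replicate 1, to 260 to 334 CPM in the other fresh-frozen libraries and to 59.9 to 67.0 CPM in fixed ones. Without fresh-frozen replicate 1, the homeobox genes again split into 12 rises and 14 falls. Rod markers, 22 in number, summed to 44369 to 51732 CPM in fresh-frozen and to 49834 to 55527 CPM in fixed libraries, with a median change of 0.15. In bulk tissue, fewer cells of a type and less RNA per cell cannot be told apart.

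Among the 48 homeobox genes, 12 rose and 14 fell in PFA-fixed retina, 22 did not pass, and the median change was -0.079 on the log2 scale (limma, adjusted p under 0.05 after Benjamini-Hochberg (BH) correction for 12824 genes). Of the 12 rises, 4 are HOX and NKX genes that were chosen for rising, so nothing is read from them. Without the HOX, NKX and DLX genes, 8 of 43 rose and 14 fell (51.2%), with a median of -0.13. Of all 12824 genes 68.7% passed, 33.9% upward and 34.7% downward. The median change of all genes was -0.018. Of the same 43, 36 changed by under 2-fold (83.7%, and 75.6% of all genes). At least 2-fold, 1 rose (10.6% of all genes rose as much) and 6 fell (13.7% of all genes). In 17 of the 43 (39.5%) the fixed and fresh-frozen libraries did not overlap, where 62.9% of all genes did not overlap. Over all 48, which include the genes chosen for rising, these counts were 37, 5, 6 and 21. The median SD between libraries was 0.22 in fresh-frozen and 0.19 in fixed tissue for the 48 genes, and 0.16 and 0.15 for all genes. Every gene of the table exceeds 1 CPM in at least 4 libraries, so a gene below 1 CPM throughout 1 group is present only through the other and had to differ. That applies to 2 of the 48, HOXD13 and SIX2. A gene with only some libraries of 1 group below 1 CPM can likewise depend on the other group, which favours a difference. Among the 48 this holds for DLX1, ONECUT3 and TGIF2. Among further homeobox genes named below it holds for PITX1, HMX3, DLX5, IRX2 and IRX3. The split depended on the scaling. Centring each library on the mean of its 22 rod genes moved the median of all genes to -0.25 and gave 8 rises and 18 falls, and centring on their median (rod-median scaling) moved it to -0.67 and gave 4 rises and 30 falls. Rod-median scaling lowers every change by 0.65, so any difference between 0 and 0.65 given here turns negative with it. For all genes the deposited scaling gave 4353 rises and 4451 falls, the rod mean 2816 and 5758, and the rod median 1138 and 8074.

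**Figure D1:**
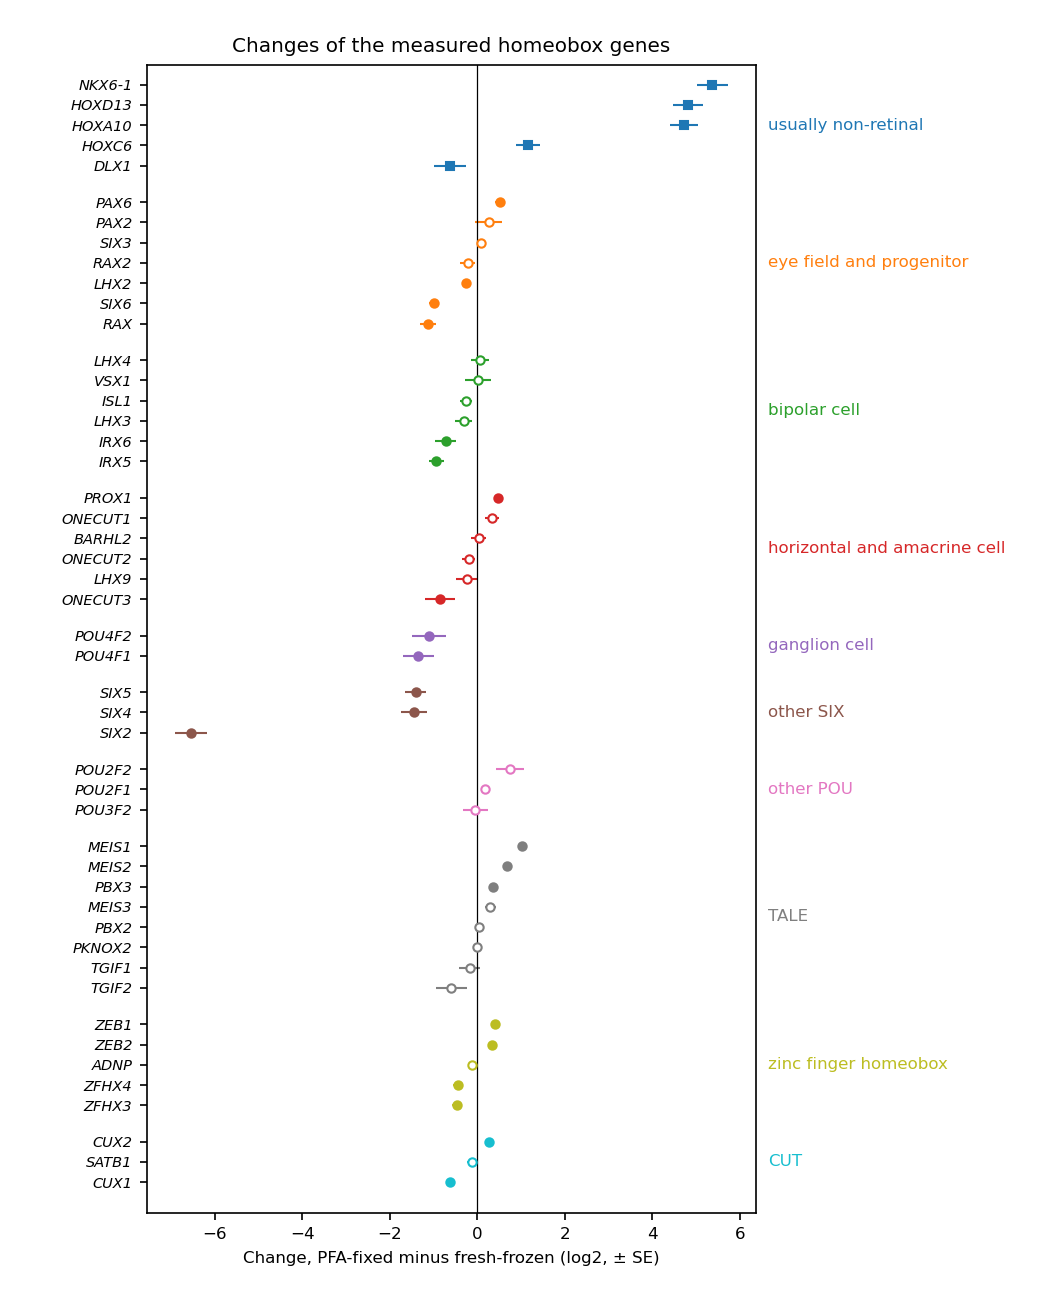
Change of each of the 48 measured homeobox genes, as PFA-fixed minus fresh-frozen level on the log2 scale with its SE (4 libraries a group), sorted within role groups. Filled circles passed limma and open circles did not; squares are the HOX, NKX and DLX genes, which carry no test. NKX6-1, HOXD13 and HOXA10 lie between 4.73 and 5.38, SIX2 lies at -6.54, and most others lie within 1 of zero; under rod-median scaling each point lies 0.65 lower.

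NKX6-1, HOXA10, HOXD13 and HOXC6 had fixed libraries entirely above the fresh-frozen range, and DLX1 did not. NKX6-1, a factor of ventral spinal cord and pancreatic beta cells, was at 2.52, 0.40, 1.92 and 1.47 log2 CPM in fresh-frozen replicates 1 to 4 and at 6.86, 7.48, 6.91 and 6.56 in PFA-fixed replicates 1 to 4. The lowest fixed library exceeded the highest fresh-frozen one by more than 4 log2 units, and the mean difference was 5.38 ± 0.36 (SE). HOXA10, which patterns the hind trunk and the reproductive tract, stood at 0.73, 0.94, 2.13 and 2.25 in fresh-frozen and at 6.53, 6.34, 6.13 and 5.97 in fixed libraries, a difference of 4.73 ± 0.31 (SE). Fresh-frozen replicates 3 and 4 were above replicates 1 and 2 for HOXA10, while fixed libraries lay within 1 unit of each other.

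HOXD13, a gene of the distal limb and digits, was at the edge of detection in fresh-frozen retina. Its values were -2.63, -3.12, -3.12 and -2.30 log2 CPM in fresh-frozen and 2.18, 1.83, 2.15 and 1.95 in fixed libraries, a difference of 4.82 ± 0.34 (SE). From the spacing of the low values, fresh-frozen libraries held about 1, 0, 0 and 2 reads of HOXD13 and fixed libraries about 54, 38, 66 and 47. Per read of depth that is 118 times as many in fixed tissue (the 95% exact interval for counting error alone is 39.9 to 578). The gene was chosen for this rise and is in the table only through fixed tissue, so the ratio is a description. On the deposited scale, where 0 reads stand at -3.12, the change is smaller than this ratio, and with 1 CPM added before the log it was 2.15. HOXC6, a gene of the thoracic trunk, was at 1.30, 0.30, 0.79 and 1.46 in fresh-frozen and 2.02, 2.28, 1.90 and 2.27 in fixed libraries, a difference of 1.16 ± 0.27 (SE), or 0.51 under rod-median scaling. About 171 reads of HOXC6 in fresh-frozen and 215 in fixed libraries stand behind these values, at 88320000 and 51070000 reads of depth. The HOXC6 gene model overlaps those of HOXC4 and HOXC5 in the gene table used for names, so which of the 3 genes gave the reads is uncertain.

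DLX1, a factor of forebrain interneurons that is also active in the developing retina, had a lower, not a higher, mean in fixed tissue. It was at 0.12, 0.79, 0.41 and 0.60 log2 CPM in fresh-frozen and 0.53, 0.03, -0.06 and -1.08 in fixed libraries, a difference of -0.63 ± 0.37 (SE), and the groups overlapped. The rise that chose these genes is thus carried by the HOX genes and NKX6-1. The median difference of the 5 was 4.73, and 2.15 with 1 CPM added before the log.

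**Figure D2:**
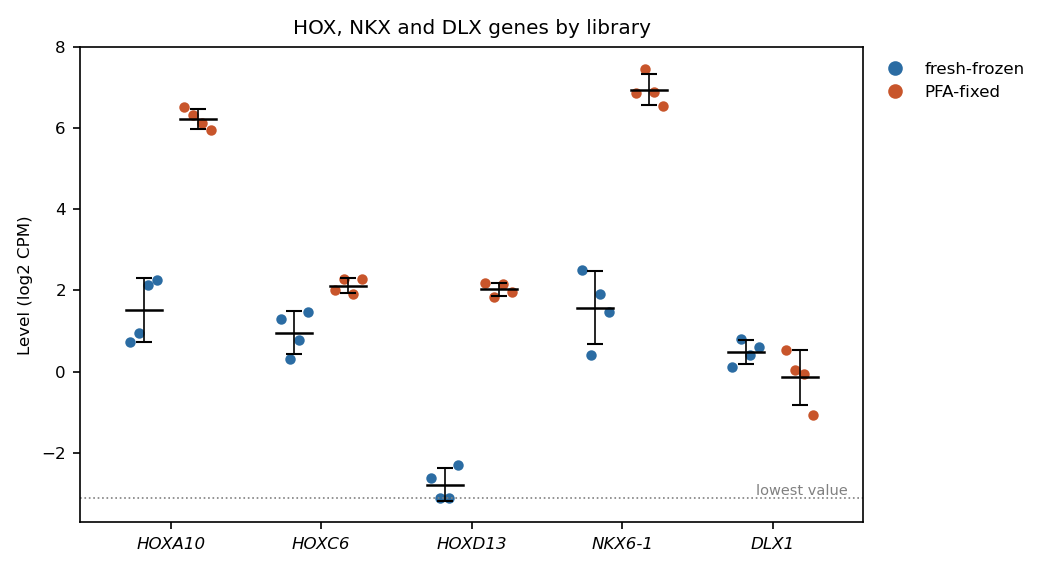
Level of the 5 measured HOX, NKX and DLX genes in each library (log2 CPM), with fresh-frozen libraries in blue, PFA-fixed libraries in orange, and the mean and SD of 4 libraries in black. The dotted line is the lowest value of the table (-3.12), where 2 fresh-frozen libraries of HOXD13 lie; the groups are apart for all genes but DLX1.

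The nearest measured genes on either side showed no rise like those of HOXA10, HOXD13 and NKX6-1. Of 39 HOX genes in the 4 HOX clusters, HOXA10, HOXC6 and HOXD13 have values, and the other 36 are not analysed here. On each side of HOXA10 the nearest measured genes were SKAP2, with 9 coding genes in between, and TAX1BP1, with 4. SKAP2, an adaptor protein gene, fell by 1.22 (limma BH-adjusted p = 1.57e-05), and TAX1BP1, an autophagy receptor gene, by 0.22 (limma BH-adjusted p = 0.0321). TAX1BP1 was no longer called when replicate 2 or 4 of the fresh-frozen group, or replicate 1, 2 or 3 of the fixed group, was left out (-0.22 to -0.17). HOXD13 lay between LNPK, of the endoplasmic reticulum, and MTX2, of the mitochondrial outer membrane. LNPK fell by 0.24 (limma BH-adjusted p = 0.0174; not called without PFA-fixed replicate 2, -0.21) and MTX2 differed by -0.18 (limma BH-adjusted p = 0.291). With each library centred on its median, neither TAX1BP1 (-0.14) nor LNPK (-0.16) was called. NKX6-1 lay between the lipid synthesis genes CDS1 (-0.20, limma BH-adjusted p = 0.175) and GPAT3 (0.12, limma BH-adjusted p = 0.148; -0.52 under rod-median scaling). HOXC6 lay between CALCOCO1 and SMUG1, which fell by 0.84 and 0.45 (limma BH-adjusted p = 1.70e-06 and 0.0112), the latter not called after quantile normalization (-0.29). DLX1 lay between METAP1D, which rose by 1.36, and the integrin gene ITGA6, which fell by 1.56 (limma BH-adjusted p = 1.83e-05 and 1.30e-07). Over the 10 neighbours the median change was -0.23, with 1 rise and 6 falls (70.0% passed, beside 68.7% of all genes).

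**Figure D3:**
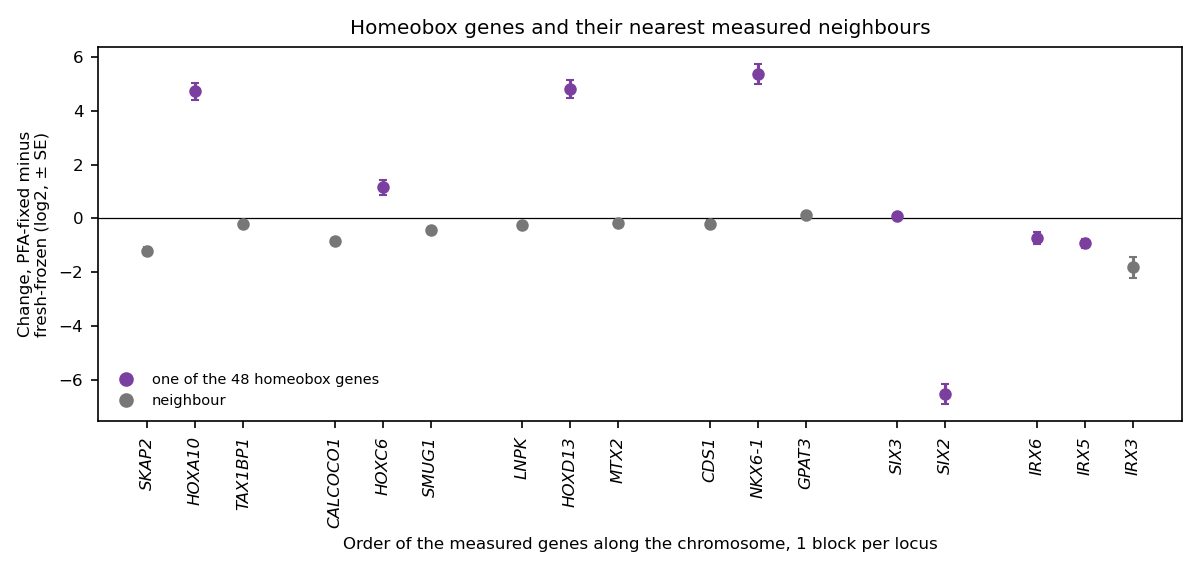
Change (PFA-fixed minus fresh-frozen, log2, with SE) of homeobox genes and of the nearest measured genes on either side, in chromosome order with 1 block per locus and not to distance. HOXA10, HOXD13 and NKX6-1 lie above 4.7 beside neighbours between -1.22 and 0.12, and SIX2 (-6.54) lies next to SIX3 (0.079); the points of SIX3 and GPAT3 turn negative under rod-median scaling.

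Eye field genes differed little, apart from RAX and SIX6. PAX6, which is needed for eye formation and stays on in amacrine, horizontal and ganglion cells, was at 7.04, 7.01, 7.34 and 7.28 log2 CPM in fresh-frozen and 7.64, 7.51, 7.69 and 7.91 in fixed libraries. It rose by 0.52 ± 0.099 (SE; limma BH-adjusted p = 6.01e-04), a rise that turned to -0.13 under rod-median scaling and was not called with the rod mean (0.29, limma BH-adjusted p = 0.0873). RAX, an eye field gene that adult Müller glia retain, was at 4.33, 4.35, 4.29 and 3.99 in fresh-frozen and 2.71, 3.68, 3.10 and 3.02 in fixed libraries, a fall of 1.12 ± 0.19 (SE; limma BH-adjusted p = 2.28e-04). PFA-fixed replicate 1 was the lowest, and the groups did not overlap. SIX6 fell by 0.99 (limma BH-adjusted p = 2.63e-06) from 4.82 ± 0.047 to 3.82 ± 0.12 log2 CPM (SD, n = 4 each), and its groups did not overlap either. The Müller glia list, which holds no homeobox gene, moved beside RAX: 0 of 15 rose and 9 fell, the median was -0.61, and the sums ran from 8082 to 10532 CPM in fresh-frozen and from 3893 to 5206 CPM in fixed libraries. Its part in the fall of RAX was not tested.

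SIX3, a close relative of SIX6 that is needed for forebrain and eye formation, was at 5.87, 5.79, 5.75 and 5.70 in fresh-frozen and 5.74, 5.94, 5.88 and 5.88 in fixed libraries. The 2 groups overlapped, and the difference was 0.079 ± 0.073 (SE; limma BH-adjusted p = 0.352), or -0.57 and called under rod-median scaling. RAX2, a photoreceptor factor related to RAX, differed by -0.22 (limma BH-adjusted p = 0.260) and was called lower with the rod mean (-0.45) and rod median (-0.87). LHX2, a LIM homeobox factor of progenitors and Müller glia, fell by 0.25 (limma BH-adjusted p = 0.0294). It was no longer called when replicate 1 or 4 of the fresh-frozen group, or replicate 1, 2 or 4 of the fixed group, was left out (-0.25 to -0.20), after quantile normalization (-0.15) and with median centring (-0.17). PAX2, which marks the optic stalk and optic nerve astrocytes, differed by 0.26 ± 0.31 (SE; limma BH-adjusted p = 0.471), with 3.07, 2.50, 1.95 and 2.13 log2 CPM in fresh-frozen and 3.20, 2.95, 2.68 and 1.86 in fixed libraries. Replicate 1 was the highest library of each group. The astrocyte gene GFAP was at 10.53, 3.65, 6.47 and 5.85 in fresh-frozen and 3.74, 1.79, 2.48 and 5.19 in fixed libraries, so fresh-frozen replicate 1 held the highest level of both genes in its group. Other libraries went the other way. PFA-fixed replicate 4 had the highest GFAP and the lowest PAX2 level of its group. Fresh-frozen replicate 2 had the lowest GFAP and the next highest PAX2 level of its group. The part of GFAP-rich tissue in the PAX2 level was not tested.

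None of the 6 bipolar cell factors rose, and 2 fell (33.3%, beside 34.7% of all genes that fell). Bipolar cells carry photoreceptor signals to the inner retina. IRX5 and IRX6, neighbouring Iroquois genes of cone bipolar cells, fell by 0.93 (limma BH-adjusted p = 3.75e-04) and 0.72 (limma BH-adjusted p = 0.017). IRX5 went from 3.60 ± 0.17 to 2.67 ± 0.28 log2 CPM and IRX6 from 3.44 ± 0.33 to 2.72 ± 0.46 (SD, n = 4 each). The groups were apart for IRX5 and overlapped for IRX6, whose call needed replicate 3 of the fresh-frozen group (-0.59 without it) and replicates 1 and 3 of the fixed group (-0.63 and -0.59 without them) and was lost after quantile normalization (-0.41). ISL1, a LIM homeobox factor of ON bipolar, ganglion and cholinergic amacrine cells, was at 5.23, 5.26, 4.76 and 5.04 in fresh-frozen and 4.98, 4.90, 4.94 and 4.49 in fixed libraries, with PFA-fixed replicate 4 the lowest of all 8. Its difference was -0.25 (limma BH-adjusted p = 0.132). Leaving out fresh-frozen replicate 3 turned this into a call (-0.35, limma BH-adjusted p = 0.0332), as did scaling with the rod mean (-0.48). VSX1, a factor of cone bipolar cells, was at 2.05, 2.35, 2.24 and 2.17 in fresh-frozen and 2.35, 1.57, 1.80 and 3.17 in fixed libraries. Fixed libraries spread from 1.57 to 3.17 around a fresh-frozen range of 2.05 to 2.35, and the difference was 0.017 ± 0.30 (SE; limma BH-adjusted p = 0.966). LHX3 and LHX4, LIM homeobox genes found in cone bipolar cells, differed by -0.31 and 0.066 (limma BH-adjusted p = 0.190 and 0.793). Of 12 bipolar markers that are no homeobox genes, 6 rose and 2 fell around a median of 0.39, which is below 0 under rod-median scaling. Among them TRPM1, the ON bipolar cation channel, rose by 0.93 and the kinase gene PRKCA by 0.92 (limma BH-adjusted p = 8.68e-06 and 1.73e-05), and PRKCA was not called under rod-median scaling (0.27). Their summed level was 1282 to 1593 CPM in fresh-frozen and 2230 to 2832 CPM in fixed libraries.

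Of the 6 measured horizontal and amacrine cell factors, 1 rose and 1 fell (33.3% passed, beside 68.7% of all genes). PROX1, a factor of horizontal and AII amacrine cells, was at 8.31, 8.32, 8.41 and 8.35 log2 CPM in fresh-frozen and 8.84, 8.82, 8.85 and 8.74 in fixed libraries. Libraries of a group lay within 0.12 of each other, and the rise was 0.47 ± 0.056 (SE; limma BH-adjusted p = 1.46e-05), or -0.18 under rod-median scaling. ONECUT1, ONECUT2 and ONECUT3 are CUT-class factors of horizontal cell development. ONECUT1 had a difference of 0.34 (limma BH-adjusted p = 0.073). Leaving out fresh-frozen replicate 3 made it a rise (0.51, limma BH-adjusted p = 0.00167), but it stood at -0.31 under rod-median scaling. ONECUT2 differed by -0.19 (limma BH-adjusted p = 0.263). ONECUT3 fell by 0.85 (limma BH-adjusted p = 0.0463), at 0.29, 0.62, 1.67 and 0.69 in fresh-frozen and -0.24, 0.37, 0.12 and -0.40 in fixed libraries. PFA-fixed replicates 1 and 4 were below 1 CPM, so its place in the table rests on fresh-frozen tissue, which favours a fall. Fresh-frozen replicate 3 was the highest, and without it the change was -0.57 (limma BH-adjusted p = 0.151). It was also not called when replicate 2 or 4 of the fresh-frozen group, or replicate 1, 3 or 4 of the fixed group, was left out (-0.92 to -0.73), or after quantile normalization (-0.46). Horizontal cell markers that are no homeobox genes gave 2 rises and 6 falls of 9, with a median of -0.28 and sums of 3118 to 3642 CPM in fresh-frozen and 1897 to 1991 CPM in fixed libraries. SPTBN1, at the highest level of the 9, made up most of each sum and fell by 1.28 (limma BH-adjusted p = 3.07e-08). TPM3, the next highest, rose by 0.62 (limma BH-adjusted p = 3.27e-05), or -0.026 under rod-median scaling. The amacrine factors LHX9 and BARHL2 differed by -0.23 and 0.040 (limma BH-adjusted p = 0.399 and 0.846), and BARHL2 was called lower under rod-median scaling (-0.61).

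Both measured POU4F genes, which specify and maintain ganglion cells, fell in fixed tissue, where 34.7% of all genes fell. POU4F1 was at 2.01, 1.65, 3.05 and 2.20 log2 CPM in fresh-frozen and 0.50, 0.73, 0.53 and 1.79 in fixed libraries, a fall of 1.34 ± 0.36 (SE; limma BH-adjusted p = 0.00527). POU4F2 was at 2.04, 1.63, 3.59 and 2.43 in fresh-frozen and 1.58, 1.41, 0.63 and 1.73 in fixed libraries, a fall of 1.09 ± 0.39 (SE; limma BH-adjusted p = 0.0257). For both genes the groups overlapped, fresh-frozen replicate 3 was the highest of 4 and PFA-fixed replicate 4 the highest of the fixed libraries. The 12 ganglion cell markers that are no homeobox genes summed to 2903, 2666, 5252 and 3399 CPM in fresh-frozen and to 3714, 2956, 3036 and 4569 CPM in fixed libraries, so the same 2 libraries held their highest sums. The part of these markers in the fall of the POU4F genes was not tested. Of those markers 2 rose and 6 fell, with a median of -0.57. At the highest level were NEFM and NEFL. NEFM rose by 0.70 (limma BH-adjusted p = 0.0047), or 0.047 and not called under rod-median scaling. NEFL fell by 0.64 (limma BH-adjusted p = 0.0265), with overlapping groups. It was not called without fresh-frozen replicate 3 or without PFA-fixed replicate 2 or 3 (-0.54 to -0.42). THY1 fell by 1.56 (limma BH-adjusted p = 3.75e-07), the lowest change of the 12, and was singled out after its value was seen. The fall of POU4F2 was not called when replicate 3 (-0.70) or 4 (-1.09) of the fresh-frozen group or replicate 3 of the fixed group (-0.85) was left out, nor after quantile normalization (-0.71, limma BH-adjusted p = 0.119).

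**Figure D4:**
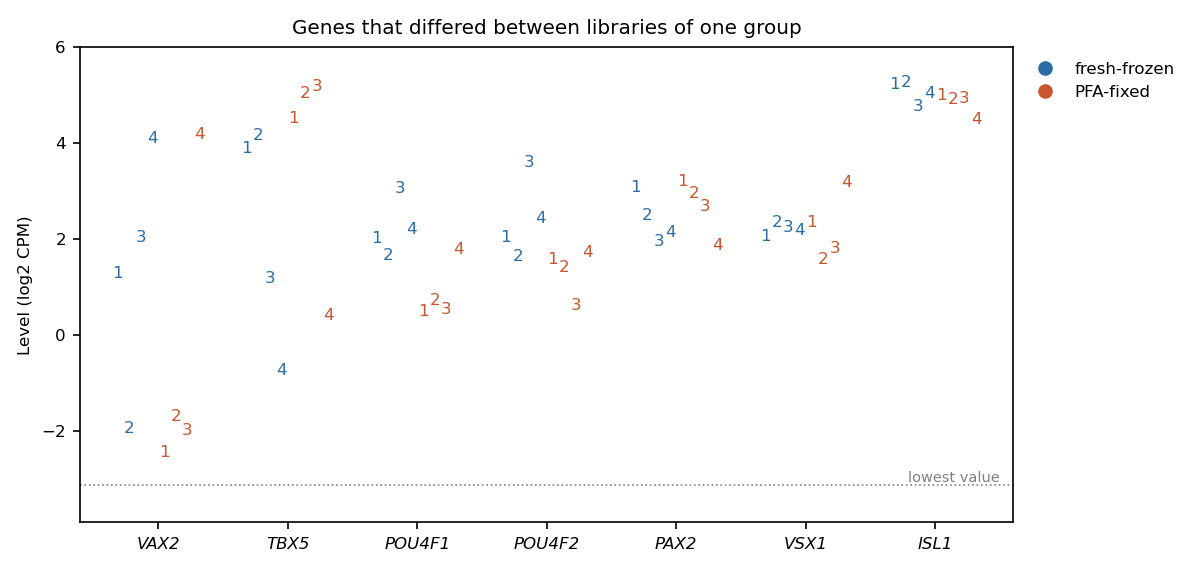
Level (log2 CPM) of 7 genes in each library, printed as its replicate number, in blue for fresh-frozen and orange for PFA-fixed tissue. VAX2 and TBX5 span more than 4 log2 units within a group, with replicate 4 of both groups at one end; POU4F1 and POU4F2 are highest in fresh-frozen replicate 3 and, among fixed libraries, in replicate 4.

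SIX2, SIX4 and SIX5, relatives of the eye field genes SIX3 and SIX6, were lower in fixed tissue, and SIX2 had the lowest change of the 48. SIX2, known for kidney progenitors and for mesenchyme around the eye and in the face, was at 3.56, 4.10, 4.03 and 4.26 log2 CPM in fresh-frozen and -3.12, -3.12, -2.47 and -1.49 in fixed libraries. In reads that is about 252, 372, 359 and 436 in fresh-frozen replicates 1 to 4 and 0, 0, 1 and 3 in PFA-fixed replicates 1 to 4. The difference was -6.54 ± 0.37 (SE), and the reads per depth were 205 times as many in fresh-frozen tissue (the 95% exact interval for counting error alone is 79.9 to 754). All fixed libraries are below 1 CPM, so SIX2 is in the table only through fresh-frozen tissue and had to differ, and its difference is a description. SIX4 and SIX5, known from muscle and lens, fell by 1.44 (limma BH-adjusted p = 0.00104) and 1.40 (limma BH-adjusted p = 2.82e-04). SIX4 was at 1.62, 2.45, 2.01 and 2.45 in fresh-frozen and 0.23, 0.73, 0.43 and 1.38 in fixed libraries. SIX5 was at 2.74, 2.83, 2.67 and 2.32 in fresh-frozen and 1.91, 1.10, 0.97 and 0.97 in fixed libraries. The groups did not overlap for any of the 3, where 62.9% of all genes did not overlap and SIX2 could not.

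SIX2 lies next to SIX3, with no coding gene between them, and their changes were -6.54 and 0.079; the difference between the genes was not tested. The sclera and fibroblast markers fell beside SIX2, as summed above, led by COL1A1 (-9.27, singled out after its value was seen). Their part in the low level of SIX2 was not tested.

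Of the 8 measured TALE genes among the 48, 3 rose (37.5%, beside 33.9% of all genes) and none fell in the deposited scaling. MEIS1, a TALE cofactor that marks retinal progenitors and amacrine cells, was at 5.09, 5.31, 5.33 and 5.43 log2 CPM in fresh-frozen and 6.33, 6.20, 6.28 and 6.46 in fixed libraries, a rise of 1.03 ± 0.089 (SE; limma BH-adjusted p = 9.32e-07) that was 0.38 under rod-median scaling. MEIS2, its close paralogue, was at 6.76, 6.91, 6.89 and 6.99 in fresh-frozen and 7.62, 7.56, 7.52 and 7.61 in fixed libraries and rose by 0.69 (limma BH-adjusted p = 1.79e-06), or 0.040 and not called under rod-median scaling. The cofactor PBX3 rose by 0.35 (limma BH-adjusted p = 2.62e-04; -0.30 under rod-median scaling). In all 3 the fixed and fresh-frozen libraries were apart, as in 62.9% of all genes. MEIS3 had a difference of 0.30 (limma BH-adjusted p = 0.052). Leaving out replicate 3 of the fresh-frozen group (0.39) or replicate 1 of the fixed group (0.35) made it a rise, but it stood at -0.34 under rod-median scaling. PBX2 was at 5.23, 5.22, 5.35 and 5.25 in fresh-frozen and 5.39, 5.28, 5.19 and 5.33 in fixed libraries, with overlapping groups and a difference of 0.036 ± 0.077 (SE; limma BH-adjusted p = 0.694), or -0.61 and called under rod-median scaling. PKNOX2 differed by 0.0036 ± 0.094 (SE; limma BH-adjusted p = 0.977; -0.65 and called under rod-median scaling). The repressors TGIF1 and TGIF2, which limit TGF-beta signalling, differed by -0.17 and -0.60 (limma BH-adjusted p = 0.541 and 0.154).

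None of POU2F1, POU2F2 and POU3F2, the remaining POU genes of the 48, passed with all libraries and the deposited scaling. POU2F1, a broadly expressed octamer-binding factor, was at 5.83, 6.22, 5.97 and 6.06 in fresh-frozen and 6.16, 6.21, 6.41 and 6.03 in fixed libraries and differed by 0.18 (limma BH-adjusted p = 0.124). It counted as a rise with fresh-frozen replicate 2 left out (0.25) and as a fall under rod-median scaling (-0.47). POU2F2, its lymphoid and neuronal relative, was at 0.78, 2.40, 1.22 and 0.99 in fresh-frozen and 2.02, 2.40, 1.90 and 2.11 in fixed libraries. Fresh-frozen replicate 2 reached the fixed range, and without it POU2F2 was called higher (1.11, limma BH-adjusted p = 0.00122), against 0.76 (limma BH-adjusted p = 0.0527) with all libraries. POU3F2, a neural factor, differed by -0.042 ± 0.29 (SE; limma BH-adjusted p = 0.907).

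Zinc finger homeobox and CUT genes changed by less than 2-fold, in both directions. ZEB1 and ZEB2, repressors of E-cadherin, rose by 0.42 (limma BH-adjusted p = 0.00101) and 0.34 (limma BH-adjusted p = 0.00351), and stood at -0.23 and -0.31 under rod-median scaling. ZFHX3 and ZFHX4, large proteins of neuronal differentiation, fell by 0.47 (limma BH-adjusted p = 9.34e-04) and 0.44 (limma BH-adjusted p = 0.00501). ZFHX3 was at 8.24, 8.23, 8.54 and 8.35 log2 CPM in fresh-frozen and 7.97, 7.81, 7.65 and 8.04 in fixed libraries, which did not overlap. ADNP, a chromatin-associated neuroprotective protein, had a difference of -0.12 (limma BH-adjusted p = 0.186), which counted as a fall with fresh-frozen replicate 1 left out (-0.19). CUX1, a CUT-class factor found in many tissues, was at 7.40, 7.35, 7.52 and 7.43 in fresh-frozen and 6.78, 6.81, 6.92 and 6.68 in fixed libraries, a fall of 0.63 ± 0.068 (SE; limma BH-adjusted p = 6.57e-06). Its paralogue CUX2 rose by 0.27 (limma BH-adjusted p = 0.00372), but was called lower under rod-median scaling (-0.38, limma BH-adjusted p = 0.0471). SATB1, a chromatin organiser, differed by -0.13 (limma BH-adjusted p = 0.338). In the gene table, 8 of the 48 homeobox genes overlap the model of another protein-coding gene, among them ZEB1 with ZNF438 and PBX2 with RNF5. The strand setting of the counting is not given in the sources used here, so their levels are uncertain.

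A further list of 173 homeobox genes gave 59 with values. Of these, 18 rose and 28 fell (78.0%, beside 68.7% of all genes), with a median change of -0.55, and 16 fell at least 4-fold while 2 rose as much. These counts include 8 genes below 1 CPM throughout 1 group, which had to differ, as did 216 of all 12824 genes. Nothing is therefore read from the 78.0% beside the 68.7%. Over genes with a mean of at least 3 log2 CPM, 13 rose and 8 fell, with a median of 0.18. That mean is taken over all 8 libraries, so a strong change can itself remove a gene. ALX4, PITX1 and PAX3 drop out although every fresh-frozen library was above 3 log2 CPM, so nothing is read from the changed balance. PITX1 fell by 6.57 (limma BH-adjusted p = 1.68e-08). ALX4 and PAX3 differed by -7.13 and -6.54, and are among 8 of the 59 genes that were below 1 CPM throughout 1 group, so they had to differ to be in the table and carry no test. ALX4 acts in mesenchyme of the face and skull, PITX1 in the hindlimb and pituitary, and PAX3 in neural crest and melanocyte precursors. ALX4 was at 4.94, 5.15, 5.09 and 5.06 in fresh-frozen and -3.12, -2.28, -1.69 and -1.19 in fixed libraries. The groups lay far apart for ALX4, beside the fall of the sclera markers above, whose part was not tested.

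The 4 largest rises of that list were in EMX2, HMX3, PAX5 and DBX1. EMX2, a factor of cerebral cortex and the urogenital tract, was at 3.27, 3.75, 3.83 and 4.04 log2 CPM in fresh-frozen and 7.10, 6.76, 6.89 and 7.06 in fixed libraries, a rise of 3.23 ± 0.15 (SE; limma BH-adjusted p = 6.04e-09). HMX3, of the inner ear and hypothalamus, rose by 2.01, PAX5, of B cells and the midbrain, by 1.78, and DBX1, of the spinal cord, by 1.73 (limma BH-adjusted p = 1.36e-05, 1.46e-07 and 6.45e-05). The 2 groups did not overlap for any of them, where 62.9% of all genes did not overlap. Of the NKX and DLX genes outside the 48, NKX2-8 fell by 1.18, DLX6 rose by 1.29 and DLX5 differed by -0.55 (limma BH-adjusted p = 9.35e-04, 1.27e-06 and 0.117). DLX6 was at 4.47, 4.65, 4.24 and 4.79 in fresh-frozen and 5.72, 5.77, 5.90 and 5.91 in fixed libraries. Among HOX, NKX and DLX genes the direction thus differed from gene to gene.

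**Figure D5:**
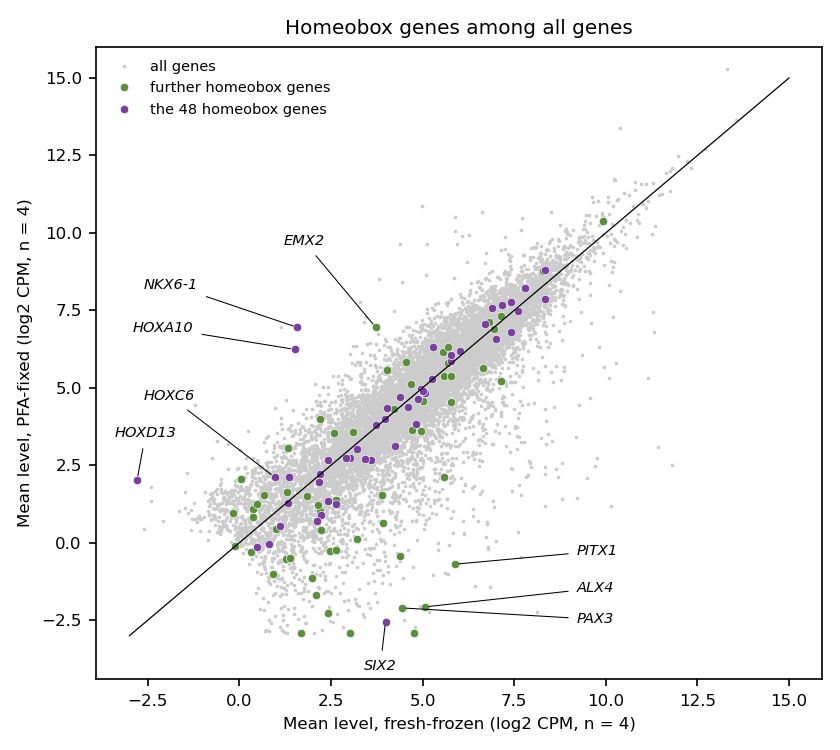
Mean level in PFA-fixed against mean level in fresh-frozen libraries (log2 CPM, 4 libraries each) for all genes (grey), the 48 homeobox genes (purple) and 59 further homeobox genes (green), with the line of equal level. NKX6-1, HOXA10, HOXD13 and EMX2 lie far above the line and SIX2, ALX4, PITX1 and PAX3 far below it.

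CRX and OTX2, homeobox factors central to photoreceptors, changed little. CRX, which drives photoreceptor genes, was at 9.87, 10.08, 9.86 and 9.90 in fresh-frozen and 10.48, 10.44, 10.43 and 10.22 in fixed libraries, a rise of 0.47 (limma BH-adjusted p = 2.56e-04; -0.18 under rod-median scaling). OTX2, of photoreceptors and bipolar cells, rose by 0.18 (limma BH-adjusted p = 0.0366), or -0.051 with the rod mean and -0.47 under rod-median scaling. OTX2 was not called when replicate 1, 2 or 4 of the fresh-frozen group, or replicate 1, 3 or 4 of the fixed group, was left out (0.15 to 0.19). Iroquois genes outside the 48 fell, with IRX1 at -2.37, IRX2 at -3.30 and IRX3 at -1.82 (limma BH-adjusted p = 3.14e-06, 1.82e-06 and 0.00107). These 5 genes were singled out after their values were seen.

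Developmental transcription factors of other families, which include T-box, GATA, forkhead, bHLH and SOX genes, gave 78 with values of 156 listed. Of these, 15 rose and 42 fell (73.1%, beside 68.7% of all genes), with a median of -0.47. Genes that had to differ to be in the table are counted here, FOXC2 and TBX18 among them. The 3 largest rises were in FOXH1 (2.57), a forkhead factor of early embryo signalling, the neuronal zinc finger gene MYT1 (1.88) and the stem cell factor SALL4 (1.56). Their limma BH-adjusted p-values were 1.15e-05, 4.51e-09 and 4.72e-04. The largest fall was in SOX10, of neural crest and glia (-5.78, limma BH-adjusted p = 2.34e-11). FOXC2 and TBX18, of mesenchyme, differed by -4.98 and -4.62; both were below 1 CPM in all fixed libraries and had to differ to be in the table, so no test is given. No gene of this list rose by as much as HOXA10, HOXD13 or NKX6-1, and no comparison of the lists was tested.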

How the data were processed

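RNA-seq libraries of 4 fresh-frozen and 4 PFA-fixed retina samples were analysed from 1 deposited table. Its values are log2 CPM, which the authors made from kallisto 0.48.0 estimates with edgeR and limma, per the submitters' processing notes; no source used here gives the genome build, the prior count or the strand setting. The table holds 12824 genes, each above 1 CPM in at least 4 libraries as checked in the values, and symbols were matched to a RefSeq gene table (12495 matched) for gene order and overlaps only.

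Groups were compared with limma 3.58.1 with trend in R 4.3.3 on these values, with group as the single term, and p-values were adjusted over all genes after Benjamini and Hochberg, with a threshold of 0.05. The change is PFA-fixed minus fresh-frozen. The fit was tested on simulated data. No count test was run, because only 62.7% to 70.1% of low values were whole multiples of 1 read (within 0.1 of a read, where 20% would be by chance). Depths and reads are therefore estimates from that spacing.

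The homeobox genes, and every list set beside them, were chosen with earlier results of these data known. Values in all libraries are given for HOX, NKX and DLX genes, for homeobox genes changed at least 2-fold, for the one with the highest level in each role group, and for those changed by under 0.1 with a mean of at least 5 log2 CPM; others in full were chosen after their values were seen. From the further lists the 4 (homeobox) or 3 (developmental) called genes with the largest change each way are named. From marker lists those with the highest level are named, with THY1 and COL1A1 added after their values were seen. Some genes that this rule takes are not reported here.

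Alternatives were leaving out each library, a replicate block, 4 scalings, a minimum mean of 3 log2 CPM, 1 CPM added before the log, limma without trend and, added after seeing the data, leaving out replicate 4 of both groups.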

Additional observations from a re-analysis of the deposited data

Results flagged for a closer look

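Single libraries were compared with the other 3 of their group for each named gene, and 10 of 222 groups (4.5%) had 1 library far outside the rest; chance alone gives about 1 in 20. Among the 48 homeobox genes this was so in 5 of 96 groups. ISL1 was at 4.49 log2 CPM in PFA-fixed replicate 4, where the others were at 4.90 to 4.98. ONECUT2 was at 3.52 in fresh-frozen replicate 3 and at 3.10 to 3.13 in the others. SIX5 was at 1.91 in PFA-fixed replicate 1 and at 0.97 to 1.10 in the others. TGIF2 was at 0.41 in fresh-frozen replicate 3 and at 1.34 to 1.38 in the others. ZFHX4 was at 6.67 in fresh-frozen replicate 1 and at 7.11 to 7.17 in the others.

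Outside the 48, the myelin gene CNP was at 6.52 in fresh-frozen replicate 1 and at 4.47 to 4.71 in the others, the same library that held the highest GFAP level. PFA-fixed replicate 4 stood apart in VAX2, at 4.19 with the others at -2.45 to -1.70, and in TBX5, at 0.40 with the others at 4.51 to 5.19. PAX3 was at 4.78 in fresh-frozen replicate 2 (others 4.30 to 4.36). IRX3 was at -0.79 in PFA-fixed replicate 3 (others 0.67 to 0.96). No cause of these differences was tested.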

How the results depend on the processing

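Of 799 alternative values for the 48 homeobox genes, 724 counted as unchanged, 31 lost a call (9 genes) and 30 gained one (13 genes). A further 11 turned sign with a call in at least 1 of the 2 fits, and 3 values of HOX genes moved. For HOX, NKX and DLX genes, unchanged means a shift of at most 1 SD, taking the larger SD of the 2 groups. For the other genes it means the same side of the threshold, with no called value turning sign. Those 11 sign changes all came from rod-median scaling, which gave -0.13 for PAX6, -0.57 for SIX3, -0.18 for PROX1, -0.61 for BARHL2, -0.47 for POU2F1, -0.61 for PBX2, -0.30 for PBX3, -0.65 for PKNOX2, -0.23 for ZEB1, -0.31 for ZEB2 and -0.38 for CUX2. Among other named genes it gave -0.53 for GNB1 (-0.21 after quantile normalization), -0.026 for TPM3, -0.52 for GPAT3, -0.18 for CRX and -0.47 for OTX2 (-0.051 with the rod mean). Rod-median scaling gave 1138 rises and 8074 falls over all genes, 4 and 30 among the 48, 6 rises among the further homeobox genes and 4 among developmental factors, and the rod mean gave 2816 rises over all genes and 11 among the further homeobox genes. Both act by a fixed shift of every gene, and the rod-median shift (0.65) exceeds the median change of the rod genes themselves (0.15). A minimum mean of 3 log2 CPM tests fewer genes and can drop a gene because it changed. It left 8 falls among the 48, 8 among the further homeobox genes, and 5 rises and 15 falls among developmental factors.

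The median of the 48 was 0.11 after quantile normalization, -0.00020 with median centring, -0.31 with the rod mean, -0.73 with the rod median, 0.040 with the minimum mean (31 genes left), and -0.12 to -0.0014 leaving out 1 library. Without the HOX, NKX and DLX genes it was 0.081, -0.048, -0.36, -0.78 and 0.036 under those 5 settings. For the HOX, NKX and DLX genes it was 4.50 with the rod mean and 4.08 with the rod median. The minimum mean leaves only HOXA10 and NKX6-1 of these, with a median of 5.05. For all 5 genes the median was 2.15 with 1 CPM added, 5.01 without replicate 4 of both groups, and 4.47 to 4.98 leaving out 1 library. The median of their neighbours was -0.46 with the rod mean and -0.88 with the rod median. For the further homeobox genes it was -0.35 after quantile normalization, -0.47 with median centring, -0.78 and -1.19 with the rod mean and median, 0.18 with the minimum mean, -0.40 with 1 CPM added, and -0.70 to -0.40 leaving out 1 library. For developmental factors the same settings, but for 1 CPM added, gave -0.30, -0.39, -0.70, -1.12 and -0.34, with -0.55 to -0.39 leaving out 1 library. Other causes were not tested.

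Whether replicate numbers pair the samples by dog or quadrant is not stated. Deviations of same-numbered libraries correlated at 0.050, 0.15, -0.089 and 0.22 over 12824 genes, and not every library correlated best with its own number. Such correlations cannot settle whether samples were paired. With the replicate block, 4336 genes rose and 4463 fell, with 14 and 13 among the 48. LHX2 was not called (-0.25, limma BH-adjusted p = 0.0545), while POU2F2 and MEIS3 were (limma BH-adjusted p = 0.0241 and 0.0473). VAX2 and TBX5 were called with the block (limma BH-adjusted p = 0.0439 and 0.0107) and not without it (limma BH-adjusted p = 0.280 and 0.233). At the estimated depths, 1 read is worth more CPM in fixed than in fresh-frozen libraries, which limits genes near the lowest value.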
